A study of Homo sapiens with 6 samples.

Results

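The siRNAs against 10 receptor tyrosine kinases were followed through a screen for genes whose loss adds to the effect of eicosapentaenoic acid (EPA), a polyunsaturated fatty acid. They are the 3 VEGF receptors (FLT1, KDR and FLT4), the 5 PDGF-class receptors (PDGFRA, PDGFRB, KIT, CSF1R and FLT3) and the 2 TIE receptors (TEK and TIE1). Members were found by the locus identifiers of these genes among the library wells, and all 10 genes were present, each with 1 well, among 926 target genes on 939 library wells. TIE1 is listed under the older symbol TIE. The cells were SUM149PT, a cell line from an inflammatory breast cancer of the triple-negative type. The 3 EPA-treated samples were transfected with 45 nM siRNA, grown for 48 hours, and then given 50 µM EPA for 72 hours. The 3 untreated samples carried the same siRNAs without EPA. Each well started with 750 cells, and its fluorescence after a resazurin reagent, which living cells reduce, was read as intensity. Fewer living cells and less dye reduction per cell cannot be told apart in this readout, and neither the level of a receptor's RNA nor its loss under the siRNA was measured. The sources used here do not say whether the samples were separate cultures, and the spread behind each p-value may therefore be technical.

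These receptors span the cell membrane once, bind a protein ligand outside the cell and phosphorylate tyrosines inside it when 2 receptor chains come together. The VEGF and TIE receptors are best known from endothelial cells, where they govern the growth and stability of blood and lymph vessels. PDGFRA and PDGFRB act in cells of connective tissue and vessel walls, and KIT, CSF1R and FLT3 in blood-forming cells, mast cells and macrophages. Here they were tested in a breast cancer line grown without other cell types.

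The negative control siRNA, OTP3, read 24974 ± 2910 units with EPA and 49202 ± 1290 untreated (SD, n = 3 each), so EPA left 50.8% ± 3.50 (SE) of its signal. The median of the library wells read 13565 ± 1400 units with EPA and 22991 ± 1180 untreated (SD, n = 3 each), a ratio of 59.0% ± 3.94 (SE). This ratio of medians is not the median of the shares left by single wells, which was higher. By share left, KDR (63.6%) ranked 383 and FLT4 (70.2%) ranked 490 from the lowest of the 939 library wells, so the median share lay between them. Blank wells read 3888 ± 28.9 with EPA and 3738 ± 40.5 untreated (SD, n = 3 each), and this level is the floor for every value that follows. The library wells of any 2 EPA-treated samples correlated with r from 0.909 to 0.943 and those of any 2 untreated samples with r from 0.902 to 0.921, across siRNAs that are not independent replicates. In relative terms, a level is given on a log2 scale against the median of the library wells on the same plate and in the same sample, and a difference is the EPA-treated level minus the untreated level. The median library siRNA had a difference of 0.20 on this scale, so 0 is not its middle.

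Of the 10 receptor siRNAs, FLT1 and TIE1 were called lower in relative signal with EPA than without it, and none was called higher. FLT1 was the second lowest of the 939 library siRNAs, with a difference of -2.01 log2 units (SE 0.188, 95% interval -2.43 to -1.59, adjusted p = 0.000169), and TIE1 stood at -0.93 (SE 0.156, -1.28 to -0.59, adjusted p = 0.00162). The test was limma's moderated test over all library siRNAs with Benjamini-Hochberg adjustment at 0.05. It called 15.2% of all library siRNAs lower and 29.0% higher, against 2 of the 10 receptors lower and 0 higher. Among the receptors 2 (KIT and CSF1R) had an unadjusted p under 0.05 in the higher direction, and limma without its trend and robust options also called 0 higher. The median difference of the 10 was 0.20, the same as over all library siRNAs. When levels were set against OTP3 in place of the library median, FLT1 and TIE1 were still the only receptors lower and 7 were higher, where 6.28% of the library was lower and 58.1% higher.

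**Figure D1:**
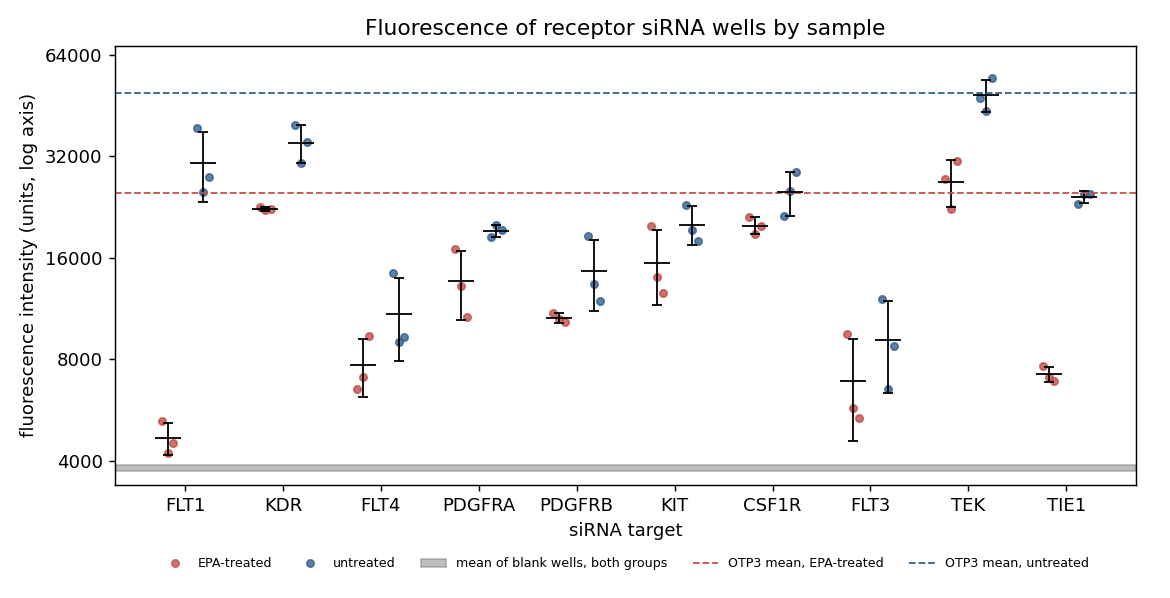
Fluorescence intensity (units, log axis) of each receptor siRNA well in the 3 EPA-treated samples (left of each pair) and the 3 untreated samples (right of each pair), with mean and SD as black bars. The grey band is the blank level and dashed lines the OTP3 means; the FLT1 wells with EPA lie closest to the blank level, at 4233 to 5237 units, while all 3 untreated FLT1 wells read 25118 or more.

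FLT1 (VEGFR1) binds VEGFA, VEGFB and placental growth factor and in many settings acts as a trap for VEGFA with weak kinase activity. Its wells read 5237, 4233 and 4532 units with EPA, against 38833, 25118 and 27857 untreated. The groups were far apart, and as read the 3 EPA-treated values were close to each other, at a level near the blank, while untreated replicate 1 was the highest of the untreated values. Blank wells of the same plate ran from 3129 to 4084 units with EPA, so the FLT1 wells lay on average 776 units above the mean blank with EPA and 26799 units above it untreated. EPA thus left 15.3% ± 2.30 (SE) of the FLT1 signal as read, and 2.90% ± 1.26 after subtraction of the plate's blank level. Because little signal was left above the blank, the size of the log2 difference depended on the background, and it was -4.36 after blank subtraction (adjusted p = 0.000212). Leaving out untreated replicate 1 gave -1.82 (adjusted p = 0.000969).

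KDR (VEGFR2), the receptor that carries most of the growth signal of VEGFA in endothelial cells, was not called. Its wells read 22646, 22113 and 22256 units with EPA, against 39563, 30503 and 35340 untreated. In raw units the groups did not overlap, but the loss was near that of the whole library: 63.6% ± 4.76 (SE) was left. The relative difference was 0.09 (95% interval -0.25 to 0.43, adjusted p = 0.650).

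FLT4 (VEGFR3), the receptor for VEGFC and VEGFD in lymphatic endothelium, gave a low signal in both groups. It read 6543, 7108 and 9377 units with EPA, against 14442, 9019 and 9337 untreated, and the groups overlapped. The share left was 70.2% ± 13.8 (SE), and the relative difference was 0.19 with a wide interval of -0.34 to 0.73 (adjusted p = 0.536). EPA-treated FLT4 wells stood 3785 units above the blank and untreated ones 7129.

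The change of FLT1 was set directly against that of its relatives by taking the log2 difference between siRNAs within each sample. FLT1 minus KDR was -2.29 ± 0.258 with EPA and -0.19 ± 0.271 untreated (SD, n = 3 each), a change of -2.10 (SE 0.216). The FLT1 well lay in row 8 of plate 1 and the KDR well in row 5 of plate 2. The change was -4.55 after blank subtraction and -1.62 after median polish of plate rows and columns. FLT1 minus FLT4 was -0.71 ± 0.366 with EPA and 1.49 ± 0.0763 untreated, a change of -2.20 (SE 0.216), or -4.33 after blank subtraction and -1.96 after median polish. In both pairs no EPA-treated value reached an untreated one, and a two-sided exact permutation test gave p = 0.1, its lower limit for 3 samples against 3 (0.167 after adjustment over 5 pairs). KDR minus FLT4 changed by -0.10 (SE 0.209, exact permutation p = 0.6), and its groups overlapped.

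**Figure D2:**
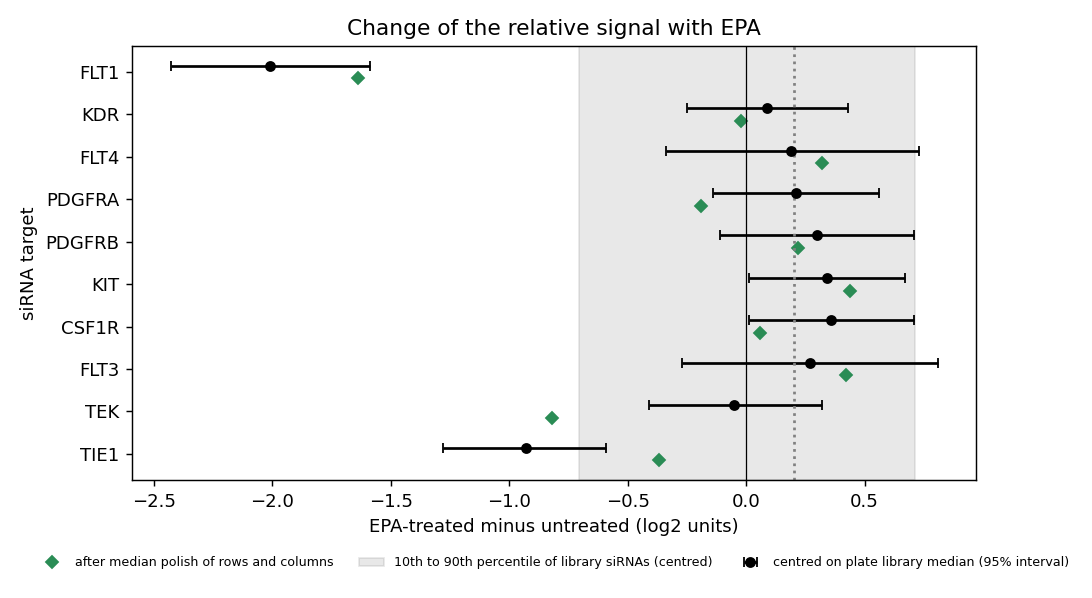
EPA-treated minus untreated relative signal (log2 units) of each receptor siRNA: black points with 95% intervals for levels centred on the plate's library median, green diamonds after median polish of plate rows and columns. The grey band spans the 10th to 90th percentile of the centred differences of the 939 library siRNAs (-0.71 to 0.71). The dotted line is their median, 0.20. No band is drawn for median polish, where the library median was 0.07. FLT1 lies left of the band under both treatments of the data. After median polish TIE1 lies inside this band of centred values and TEK left of it.

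The share left with EPA was also read in the control wells of each row. Over the 2 or 3 wells of OTP3 or of cells alone in a row that holds a receptor well, it ran from 33.9% (row 9 of plate 2, with KIT) to 84.8% (row 1 of plate 3, with TEK). FLT1, FLT3 and FLT4 shared row 8 of plate 1, in columns 8, 10 and 12. In that row the median of 20 library wells left 67.3%, with a range of 13.8% to 104%, and FLT1 was the second lowest. The 8 library wells that touch the FLT1 well left 43.5% to 66.8%, with a median of 55.2%. Median polish, which takes out the median of each row and column of a plate, left FLT1 at -1.64 (limma adjusted p = 9.95e-06), and blank subtraction followed by median polish at -3.44 (adjusted p = 0.000383).

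TIE1, a receptor without a well-established ligand of its own, which forms complexes with TEK, was the other receptor called lower. Its wells read 7633, 7097 and 6913 units with EPA, against 23039, 24785 and 24719 untreated. The spread within each group was small and the groups were far apart. EPA left 29.8% ± 1.14 (SE), the second lowest of the 20 library wells in row 3 of plate 3, whose median was 62.4%. In its column, 10, the median of 14 library wells was lower, at 42.7%, and TIE1 was the fourth lowest, while the FLT1 well was the lowest of 16 in its own column, with a median of 71.0%. The 8 library wells that touch the TIE1 well left 18.7% to 115%, with a median of 73.0%. The TIE1 wells lay on average 3328 units above the mean blank with EPA and 20436 untreated. After blank subtraction 16.3% ± 1.22 was left, and the difference was -1.51 (limma adjusted p = 0.000849). The call was lost after median polish alone, which put TIE1 at -0.37 (limma adjusted p = 0.125), but not after blank subtraction with median polish (-1.02, adjusted p = 0.0199).

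TEK (TIE2), the receptor for the angiopoietins, gave the highest signal of the 10 siRNAs in both groups. It read 27492, 22403 and 30904 units with EPA, against 47687, 43752 and 54443 untreated. These were levels of 122% of the plate's OTP3 with EPA and 109% untreated. The groups did not overlap in raw units, and 55.4% ± 6.20 (SE) was left. The relative difference was -0.05 (95% interval -0.41 to 0.32, adjusted p = 0.828).

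The TEK well lies in row 1, at the edge of plate 3, where the median library well left 92.1% and TEK was the fifth lowest of 20. After median polish TEK was lower with EPA, at -0.82 (limma adjusted p = 0.00181), where 14.5% of library siRNAs were lower and 16.5% higher; with blank subtraction too it stood at -1.18 (adjusted p = 0.00321). So FLT1 was called lower in both treatments of plate position, TIE1 with the plain centring and TEK with median polish. Quantile normalization, which makes no correction for rows or columns, also called TEK lower, at -0.52 (limma adjusted p = 0.0103), beside FLT1 and TIE1. TEK minus TIE1 was 1.89 ± 0.253 with EPA and 1.00 ± 0.165 untreated (SD, n = 3 each), a change of 0.89 (SE 0.174) with no overlap (exact permutation p = 0.1), and after median polish the change was -0.45. The part of plate position in these differences was not tested.

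**Figure D3:**
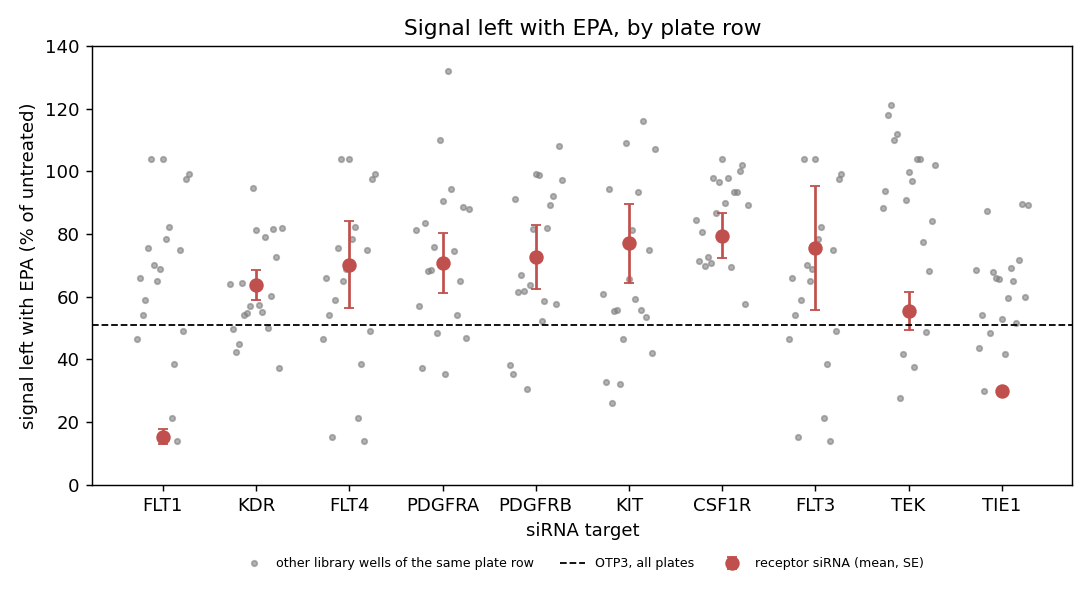
Signal left with EPA, as a percent of the untreated signal, for each receptor siRNA (red, mean and SE) beside the other library wells in the same row of the same plate (grey, 1 point per siRNA); the dashed line is OTP3 at 50.8%. FLT1 and TIE1 sit at the lower end of their rows, at 15.3% and 29.8%, and the 5 PDGF-class receptors, at 70.7% to 79.5%, in the body of theirs.

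None of the 5 PDGF-class receptors was called in either direction. The signal left with EPA ran from 70.7% ± 9.64 (PDGFRA) to 79.5% ± 7.31 (CSF1R), and the relative differences from 0.21 to 0.36, beside a library median of 0.20. Against OTP3 all 5 were higher with EPA, as were 58.1% of library siRNAs. PDGFRA, the receptor for PDGF-AA and other PDGF dimers, read 16971, 13221 and 10678 units with EPA, against 18437, 20022 and 19324 untreated. The EPA-treated values were the more scattered in raw units, but not in relative terms (SD 0.0883 with EPA and 0.17 untreated). The relative difference was 0.21 (95% interval -0.14 to 0.56, adjusted p = 0.297).

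PDGFRB, the main receptor for PDGF-BB in pericytes and smooth muscle, read 11009, 10517 and 10305 units with EPA, against 18581, 13341 and 11933 untreated. Here the untreated values were the more scattered in raw units, while the relative levels had similar SDs (0.219 with EPA and 0.241 untreated). The relative difference was 0.30 (-0.11 to 0.71, adjusted p = 0.212). PDGFRA minus PDGFRB changed by -0.09 (SE 0.275, exact permutation p = 0.8), with groups that overlapped.

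KIT, the receptor for stem cell factor, read 19841, 14003 and 12541 units with EPA, against 23023, 19321 and 17915 untreated. The raw values overlapped, but the relative levels did not, and the difference was 0.34 (0.01 to 0.67, adjusted p = 0.0897). KIT passed the threshold after blank subtraction with median polish, at 0.81 (adjusted p = 0.0335).

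CSF1R, the receptor for macrophage colony-stimulating factor, read 21106, 18793 and 19882 units with EPA, against 21252, 25228 and 28675 untreated. All EPA-treated values lay below the untreated ones in raw units, and above them in relative terms, with a difference of 0.36 (0.01 to 0.71, adjusted p = 0.0841). The CSF1R well sat in row 2 of plate 1, where the median library well left 87.9%, and after median polish its difference was 0.06 (adjusted p = 0.783).

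FLT3, the receptor for FLT3 ligand in blood progenitors, gave the lowest untreated signal of the 10. It read 9540, 5737 and 5372 units with EPA, against 12093, 6552 and 8744 untreated, and the groups overlapped. The share left was 75.4% ± 19.8 (SE) as read, the least certain of the 10, and the relative difference was 0.27 (-0.27 to 0.81, adjusted p = 0.379). The wells lay 2992 units above the blank with EPA and 5326 untreated. After blank subtraction 56.2% ± 30.5 was left, and the difference was -0.10 (limma adjusted p = 0.884).

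In raw units, EPA-treated and untreated values did not overlap for 7 of the 10 receptors, all lower with EPA, where the same held for 61.7% of library siRNAs. On the relative scale 2 receptors (FLT1 and TIE1) were lower without overlap, beside 18.8% of the library, and 2 (KIT and CSF1R) higher, beside 36.0%.

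Without EPA the relative levels of the 10 siRNAs ran from -1.45 ± 0.447 (FLT3) through -1.18 ± 0.379 (FLT4), -0.77 ± 0.241 (PDGFRB, SD, n = 3 each), -0.35 (PDGFRA), -0.30 (KIT), 0.04 (CSF1R), 0.27 (TIE1) and 0.32 (FLT1) to 0.51 (KDR) and 1.27 (TEK). The ranges of the samples of neighbours in this order overlapped, except between KIT and CSF1R and between KDR and TEK. By limma's test 5 receptors were lower than the library median (FLT3, FLT4, PDGFRB, PDGFRA and KIT) and 2 higher (KDR and TEK), where 35.6% of library siRNAs were lower and 33.9% higher. FLT1, with an adjusted p = 0.0534, and TIE1, with 0.0502, did not pass. PDGFRA lost its call without untreated replicate 1 or 3, and KIT without any 1 of the 3 untreated replicates, while FLT1 gained one without untreated replicate 2 and TIE1 without untreated replicate 1 or EPA replicate 4. Without untreated replicate 1 or 3, 3 receptors were lower.

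Several untreated calls changed with the correction for plate position. After median polish FLT1 (1.08, limma adjusted p = 1.19e-06), KDR (0.94) and TEK (0.52) were higher, TIE1 (-0.71), PDGFRB (-0.37) and FLT3 (-0.33) were lower, and FLT4 stood at 0.05 (adjusted p = 0.764). That made 3 lower and 3 higher of the 10, where 27.4% of the library was lower and 26.0% higher. Row 8 of plate 1, which holds FLT1, FLT3 and FLT4, had a median of 14669 units untreated, below the library median of 22991. Set against OTP3, 9 of the 10 receptors were lower untreated, TEK excepted, but so were 91.8% of all library siRNAs, and 0 were higher, beside 0.532%.

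**Figure D4:**
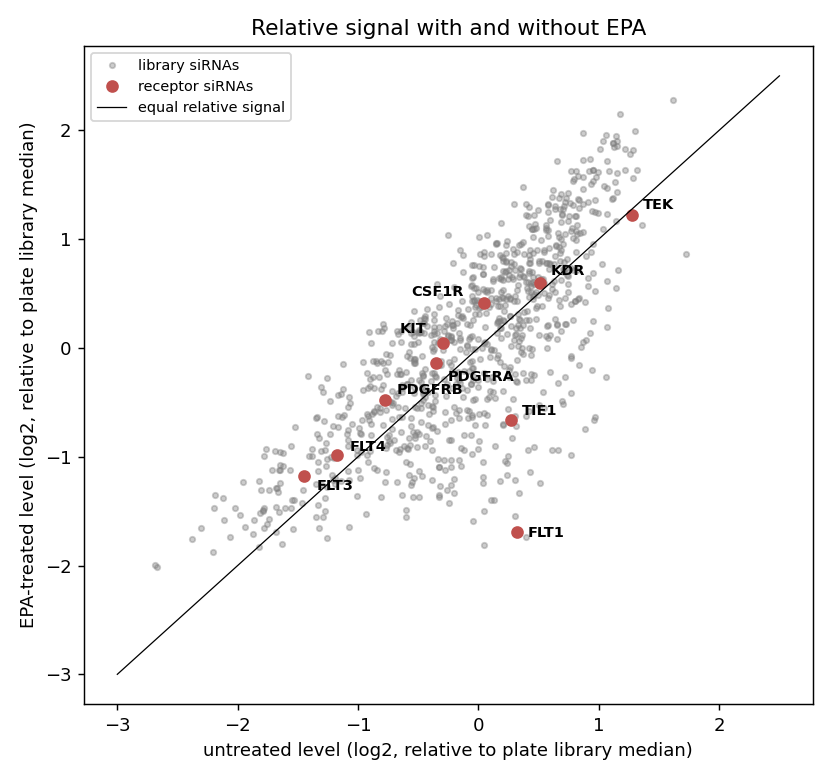
Relative signal of each library siRNA with EPA (vertical axis) and untreated (horizontal axis), both as log2 of the signal over the plate's library median, means of 3 samples each; receptor siRNAs are in red and the line marks equal relative signal. FLT1, at -1.69 with EPA and 0.32 untreated, and TIE1, at -0.67 with EPA and 0.27 untreated, stand below the line, and the other 8 receptors lie between -0.05 and 0.36 from it.

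With EPA the order was headed from below by FLT1, at -1.69 (SE 0.133), whose samples did not overlap with those of FLT3, the next, at -1.17. FLT4 (-0.98), TIE1 (-0.67), PDGFRB (-0.47), PDGFRA (-0.14), KIT (0.04), CSF1R (0.41), KDR (0.60) and TEK (1.22) followed. FLT3 overlapped with FLT4, FLT4 with TIE1, TIE1 with PDGFRB, and CSF1R with KDR. By limma's test 5 were lower (FLT1, FLT3, FLT4, TIE1 and PDGFRB) and 3 higher (CSF1R, KDR and TEK), where 37.0% of library siRNAs were lower and 36.4% higher. PDGFRB lost its call without EPA replicate 4. After median polish FLT1 (-0.56), TIE1 (-1.07), PDGFRA (-0.32) and TEK (-0.29) were lower and KDR (0.92), KIT (0.70) and FLT4 (0.37) higher, where 30.0% of the library was lower and 30.2% higher. Set against OTP3, 7 receptors were lower with EPA and TEK alone was higher, beside 64.6% lower and 13.5% higher.

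Several of these genes are neighbours in the RefSeq annotation. PDGFRA, KIT and KDR follow each other with 0 protein-coding genes between them, as do CSF1R and PDGFRB, and 1 lies between FLT3 and FLT1. Among these neighbours FLT1 left 15.3% and FLT3 75.4% of the signal as read with EPA, while PDGFRA, KIT and KDR left 70.7%, 77.0% and 63.6%. After blank subtraction the shares were, in the same order, 2.9%, 56.2% (SE 30.5), 62.4%, 70.5% and 58.6%.

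The siRNAs whose 6 relative values were closest to those of FLT1, by Euclidean distance, were those against AMHR2, the receptor of anti-Müllerian hormone (distance 0.676, difference -1.67), and PFKL, the liver form of phosphofructokinase (0.715, difference -1.85). For KDR they were TK1, thymidine kinase, at 0.237, and EEF2K, the kinase of elongation factor eEF2, at 0.243. For FLT4 they were MARK4, a microtubule-affinity regulating kinase, at 0.396, and SPA17, a sperm protein, at 0.480.

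Kinases that carry signals downstream of these receptors were screened as well. Of 48 siRNAs against 47 such genes, 6 were lower and 15 higher with EPA than without, where 15.2% of the library was lower and 29.0% higher. Their median difference was 0.22, beside 0.20 over the library. Median polish left 4 lower and 7 higher, where it left 14.5% and 16.5% of the library. Those passing both ways with the lowest differences were MTOR, the growth-controlling kinase (-1.54, SE 0.197, limma adjusted p = 0.000549), and SRC (-1.0, SE 0.150). MTOR wells read 5337 units on average with EPA and 25027 untreated, while SRC wells read 7641 with EPA and 26910 untreated. Among the highest was SPHK1, sphingosine kinase 1 (0.89, SE 0.256). It read 9166 units on average with EPA and 8377 untreated, a low signal in both groups, while the library median fell.

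Among 47 other receptor tyrosine kinases, 5 were lower and 18 higher, with the same library shares of 15.2% and 29.0%. The median was 0.26, and 15 of these siRNAs sat in edge wells, against 1 of the 10 receptors described here. Median polish gave 7 lower and 8 higher, beside 14.5% and 16.5% of the library. EPHA2, an Eph receptor (-1.63, SE 0.159), was the lowest passing both ways, and it lay above the FLT1 value of -2.01. The highest of those passing both ways were RET (1.07) and EPHA6 (0.72). RET, in an edge well, read 37845 units on average with EPA and 32073 untreated. EPHA6 read 6476 with EPA and 6234 untreated, a low and nearly unchanged signal set against a library median that fell. The differences between these lists and the receptors were not tested.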

How the data were processed

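The authors deposited raw fluorescence intensity per well, per the file headers, with 3 columns headed untreated and 3 headed treated, numbered 1 to 6. The labels do not tie a column to one numbered sample. Blank subtraction or normalization by the authors is not given in the sources used here. Each of 3 plate layouts had 16 rows, 24 columns, 16 blank, 24 cells-only, 16 OTP3 (negative control siRNA) and 8 TOX (positive control siRNA) wells. Row and column were worked out from each well's position number, on the assumption that it runs along rows of 24. Edge wells, touching wells and median polish rest on this assumption. Of 939 library wells, 933 matched a RefSeq gene (GRCh38.p14) by locus identifier. Another 21 wells without siRNA were left out.

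The log2 intensity of each well was centred on the library median of its plate and sample, without a pseudocount or low-value filter. limma 3.58.1 in R 4.3.3 (trend and robust options) fitted a mean per group over all library wells, with two-sided tests at 0.05. The number of samples (3 per group) and the blank level limit the precision. The script was tested on simulated data. The 5 receptor pairs were compared by exact permutation. All 10 members were named, with the 2 siRNAs nearest to each VEGF receptor and, per list, the 2 lowest and 2 highest passing with and without median polish. Some of the genes this rule selects are not reported here. Members and lists were chosen with earlier results of these data known. The siRNA sequences were not used here. Alternatives were OTP3 centring, centring on the median difference, blank subtraction (floor at 3 blank SDs), median polish, both, leaving out edge wells (rows 1 and 16, column 24), quantile normalization, a filter at 2 times the TOX median, plain variances and leaving out each column.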

Additional observations from a re-analysis of the deposited data

How the results depend on the processing

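FLT1 kept its lower call for EPA-treated minus untreated under all 15 alternatives (-4.36 to -1.62, adjusted p 9.95e-06 to 0.00154), and TIE1 under 14 of 15 (-1.51 to -0.37, adjusted p 0.000361 to 0.125). With OTP3 centring the library counts became 59 lower and 546 higher for that difference, 607 and 127 with EPA, and 862 and 5 untreated. The receptor counts became 7 higher for the difference, 1 higher with EPA, and 9 lower and 0 higher untreated. The same centring turned the sign of the difference for TEK (0.34), of the EPA-treated level for KIT (-0.54) and CSF1R (-0.29), and of the untreated level for FLT1 (-0.76), KDR (-0.59), CSF1R (-1.04) and TIE1 (-0.90). KDR minus FLT4 became 0.03 there. By construction this setting counts from the negative control, which lies above the library median.

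Setting the median difference to 0 gave 131 library siRNAs higher and KDR at -0.12. Quantile normalization gave KDR at -0.07 and TEK at -0.52, with 3 receptors and 160 library siRNAs lower. Blank subtraction turned FLT4 (-0.03), FLT3 (-0.10) and TEK (0.14) in the difference, and KDR minus FLT4 to 0.22. Median polish gave 155 library siRNAs higher in the difference, with KDR at -0.02 and PDGFRA at -0.19, and TEK minus TIE1 at -0.45. Its EPA-treated levels turned for FLT4 (0.37), CSF1R (-0.18), FLT3 (0.09) and TEK (-0.29). Untreated, FLT4 (0.05), KIT (0.26), CSF1R (-0.24) and TIE1 (-0.71) turned and 3 receptors were lower. Blank subtraction with median polish gave 128 library siRNAs and 1 receptor higher in the difference, PDGFRA at -0.17 and TEK minus TIE1 at -0.16. Its EPA-treated levels turned for FLT4 (0.64), CSF1R (-0.22), FLT3 (0.09) and TEK (-0.59), with 3 receptors lower. Its untreated levels turned for KIT (0.33), CSF1R (-0.31) and TIE1 (-0.82), with 3 receptors lower, and 218 library siRNAs lower and 209 higher. Leaving out edge wells, which removes TEK, put the EPA-treated PDGFRA level at 0.04 and left 3 receptors lower untreated. Quantile normalization and plain variances each gave 4 receptors higher untreated. The cause of these shifts was not tested.

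Leaving out 1 replicate gave 3 to 5 receptors lower untreated. Differences ranged from -0.22 to 0.11 for TEK, from -0.02 to 0.23 for KDR and from -0.00 to 0.41 for FLT4. The EPA-treated KIT level ranged from -0.01 to 0.07 and the untreated CSF1R level from -0.06 to 0.16. KDR minus FLT4 ranged from -0.29 to 0.01 and PDGFRA minus PDGFRB from -0.31 to 0.05. The low-signal filter kept 856 siRNAs and removed FLT3. Centring on the median difference bears only on the difference. No paired analysis was possible because the columns of the groups carry different numbers. Signals near the blank limit what can be read of FLT1 and TIE1 with EPA, and of FLT3 and FLT4 in both groups.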
